A study of Homo sapiens with 32 samples.

Results

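Ishikawa-S33Y is a human endometrial cancer cell line that the labels list as CTNNB1-mutated; its name ties it to Ishikawa, which the labels list as CTNNB1-wildtype. Its response to SM08502 was read from 4 of the 32 RNA sequencing libraries of the series, chosen by cell line and treatment: 2 replicates given 85 nM SM08502 for 24 h, and 2 given 0.1% DMSO, the vehicle, for the same time. The same line also received 6 nM paclitaxel, or 6 nM paclitaxel together with 85 nM SM08502, with 2 libraries each. Ishikawa, SNGM and HEC265, the other lines of the series, received SM08502 at 80, 350.7 and 149 nM, each with its own vehicle group of 2 libraries. Each dose was set per line from its own viability assay, according to the labels, and 500 ng of RNA went into each library except those of Ishikawa, which had 350 ng. Dose and RNA input therefore cannot be told apart from the line. The sources do not say whether Ishikawa-S33Y is 1 clone, and they say only that cells were plated in duplicate. The p-values therefore measure a spread between replicates that may be technical. It was estimated from all 32 libraries of the series, not from these 4 alone.

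SM08502, also known as cirtuvivint, inhibits the CDC-like kinases (CLKs). These kinases phosphorylate the SR proteins, which bind exons and help the spliceosome choose splice sites, and chemical inhibition of CLKs is known to change splicing of many transcripts, including those of the CLKs themselves. Beta-catenin, encoded by CTNNB1, carries the Wnt signal to the nucleus; exchange of the serine named in S33Y removes a site by which the destruction complex marks the protein for degradation, and such mutations are common in endometrial cancer. Splicing itself was not analysed here, and every value below is a gene level or a difference between gene levels.

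The deposited values were converted to CPM (reads of a gene per 1000000 reads of the library), and 17011 of 35238 genes had more than 1 CPM in at least 2 of the 32 libraries. A difference is the mean log2(CPM + 1) on SM08502 minus that on vehicle, which understates changes of low genes, and a gene was called at a limma adjusted p under 0.05. The 4 libraries held 17143467 to 23852360 reads. The limit that a count of 0 allows, 3 reads, corresponds to 0.126 to 0.175 CPM and covers counting error only. The root mean square difference between replicates was 0.109 on vehicle and 0.118 on SM08502 (log2). Over all 16 groups, from which the p-values take their spread, it ran from 0.084 (HEC265 vehicle) to 0.549 (Ishikawa paclitaxel). Mitochondrial transcripts took 13.2% and 13.6% of the reads on vehicle and 11.2% and 13.4% on SM08502. Of 21 markers of endometrial epithelium, 18 exceeded 1 CPM in all 4 libraries, whereas 8 of 14 immune markers stayed under 1 CPM in all 4, 3 of them without a read. Of 14 stromal and mesenchymal markers, 6 exceeded 1 CPM in all 4 and 5 stayed under it. COL1A1 (816 to 1158 CPM) and VIM (852 to 951 CPM) were abundant. Of 10 endothelial markers, 3 exceeded 1 CPM in all 4 and 4 stayed under it. In bulk RNA, fewer cells of a kind and less RNA per cell cannot be told apart.

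SM08502 changed the level of many genes in Ishikawa-S33Y. Of the 17011 genes tested, 4946 were called, or 29.1%: 3146 were higher (18.5%) and 1800 lower (10.6%). By at least 2-fold, that is, by at least 1 on the log2(CPM + 1) scale, 293 genes rose and 335 fell. The added 1 shrinks changes of low genes, so these counts do not show which direction had more large changes. Genes that rose this far had low levels, with a median of 3.803 CPM on vehicle, against 34.9 CPM for those that fell this far and 18.5 CPM for all genes tested. The median difference of all genes was 0.11, so that 63.6% of the calls were higher; after each library was centred on its median the split was 53.9%, after quantile normalization 52.5%, and with limma voom on recovered reads 44.5%.

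The largest changes were ranked among called genes whose treatments did not overlap. A mean log2(CPM + 1) of at least 2 over the 4 libraries was also required. Among the 12 largest falls so ranked, 11 of which are described, were genes of the cell surface and the contractile cytoskeleton. MYH9, the heavy chain of non-muscle myosin IIA (chr22:36281280-36387967), went from 783 and 801 CPM to 154 and 129 CPM, a difference of -2.48 (SE 0.43, adjusted p = 0.00023). Its relative MYH14, which encodes non-muscle myosin IIC, went from 145 and 139 CPM to 38.8 and 30.7 CPM, a difference of -2.01 (SE 0.48, adjusted p = 0.0036). In both genes the vehicle libraries lay far above both SM08502 libraries. EDN2, which encodes the vasoactive peptide endothelin-2, went from 51.3 and 48.3 CPM to 9.57 and 7.16 CPM, a difference of -2.45 (SE 0.20, adjusted p = 4.3e-08). ITGB5, the integrin beta-5 subunit, went from 59.9 and 58.5 CPM to 12.8 and 12.6 CPM (-2.13), and CELSR1, a planar polarity cadherin, from 222 and 209 CPM to 56.9 and 46.7 CPM (-2.04). ATP2B4, a plasma membrane calcium pump, went from 136 and 131 CPM to 32.7 and 27.5 CPM (-2.12), DYSF (dysferlin, which acts in membrane repair) from 36.7 and 39.9960 CPM to 10.1 and 6.02 CPM (-2.16), and GPD1L, related to glycerol phosphate dehydrogenase, from 59.3 and 57.8 CPM to 12.9 and 12.8 CPM (-2.10). The remaining 3 were the Wnt co-receptor LRP5, HYAL3 and AC007325.2, which went from 15.0 and 15.9 CPM to 2.51 and 1.63 CPM. These 11 genes also had differences below 0 in Ishikawa, from -1.73 for EDN2 to -0.64 for AC007325.2.

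The 12 largest rises under the same rule started from low levels. Called rises of genes under the required level, such as PYCARD (described below), were not ranked. CCDC150P1, a pseudogene that lies inside CLIP1 in the RefSeq table (chr12:122322174-122323847), stood at 1.33 and 1.05 CPM on vehicle and 32.1 and 34.6 CPM on SM08502, a difference of 3.97 (SE 0.34, adjusted p = 7.2e-08). CLIP1 itself had 102 and 102 CPM on vehicle and 145 and 142 CPM on SM08502, a difference of 0.49 that was not called (adjusted p = 0.13). SRRM5 overlaps ZNF428 and went from 1.28 and 1.13 CPM to 11.8 and 12.7 CPM (2.58), while ZNF428 stayed at 19.1 and 17.9 CPM and 17.6 and 18.5 CPM. CNTF, ciliary neurotrophic factor, went from 1.38 and 1.64 CPM to 11.6 and 10.5 CPM (2.27), and the readthrough gene ZFP91-CNTF that spans it went from 0.739 and 0.419 CPM to 6.24 and 4.30 CPM. Because the counting strand is not given in the sources used here, reads of overlapping genes could not be told apart. The glutamate transporter SLC1A3 was the member with the highest starting level, 9.56 and 9.73 CPM on vehicle and 32.5 and 34.9 CPM on SM08502, a difference of 1.70 (SE 0.13, adjusted p = 2e-08). CMYA5, a muscle-associated protein, rose from 1.92 and 1.80 CPM to 13.2 and 15.8 CPM, and OVGP1, oviductal glycoprotein, from 2.27 and 2.18 CPM to 13.1 and 14.3 CPM. CCDC168, RP11-435I10.4, SLC10A5 and RP11-400G3.5 rose by 2.08, 2.05, 1.81 and 1.70. SLX1B, which has near-identical copies in the genome, is uncertain: its SM08502 replicates stood at 21.9 and 9.13 CPM, and its rise of 2.50 (adjusted p = 0.0061) was not called without SM08502 replicate 1, without vehicle replicate 1 or with a pseudocount of 0.1 (adjusted p from 0.0017 to 0.094 over the alternatives).

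HYAL3 and NAT6 share a stretch of chromosome 3 and moved apart. HYAL3, a hyaluronidase gene (chr3:50292832-50299405), stood at 18.3 and 17.6 CPM on vehicle and 2.97 and 3.36 CPM on SM08502, a difference of -2.19 (SE 0.37, adjusted p = 0.00016). NAT6, the N-terminal acetyltransferase gene now named NAA80, stood at 1.53 and 1.30 CPM and 7.52 and 6.32 CPM, a difference of 1.71 (SE 0.17, adjusted p = 7.3e-07). The same opposed pair appeared in Ishikawa, where HYAL3 differed by -1.59 and NAT6 by 1.24.

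**Figure D1:**
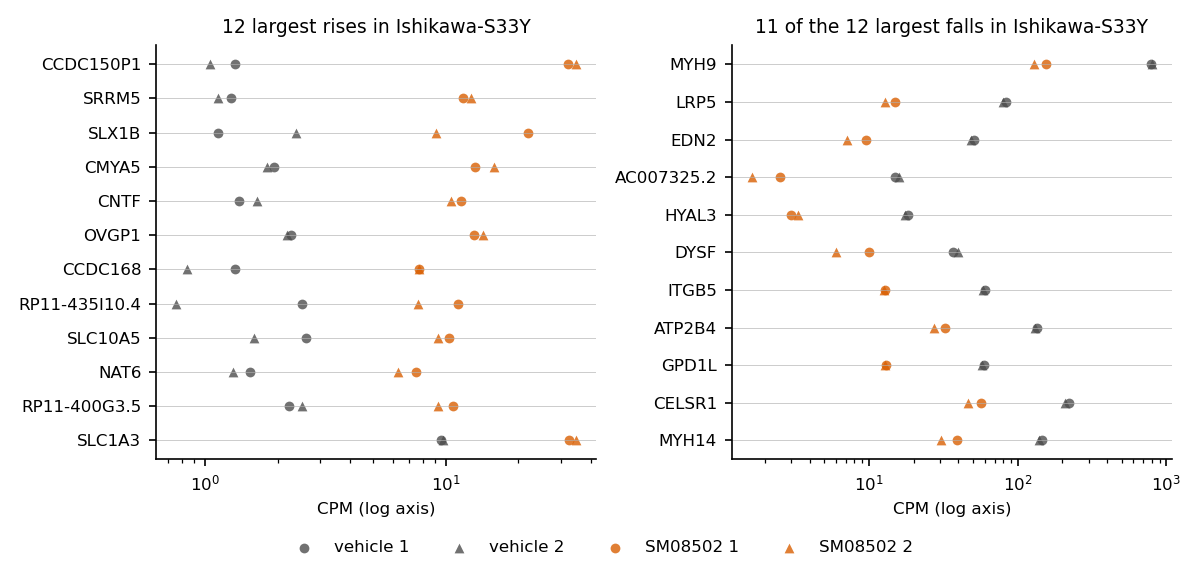
CPM (log axis) of the 12 genes with the largest called rises and 11 of the 12 with the largest called falls, 1 point per library, grey for vehicle and orange for SM08502, circles for replicate 1 and triangles for replicate 2. Only genes with a mean log2(CPM + 1) of at least 2 were ranked. In each of the 23 genes the 2 treatments do not overlap, which the ranking required. CCDC150P1 has the widest gap among the rises.

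Transcripts of the targeted kinases rose. Of 16 CLK and related splicing kinases tested, 7 were called higher (43.8%, against 18.5% of all genes) and 0 lower (against 10.6%), with a median of 0.25 against 0.11 for all genes. These background shares of 18.5% and 10.6% stand beside the counts of every list below, as a description. They hold for the main fit only, which called 4946 genes. With limma voom 5541 genes were called in all, with a smaller share of them higher, and without 1 library fewer were called. The shares are therefore no background for list counts from those fits. CLK1 (chr2:200853009-200864658) stood at 17.6 and 18.6 CPM on vehicle and 61.5 and 60.3 CPM on SM08502, a difference of 1.70 (SE 0.14, adjusted p = 5.3e-08). CLK4, its closest relative, stood at 8.13 and 7.55 CPM and 25.1 and 25.4 CPM, a difference of 1.57 (SE 0.16, adjusted p = 9.5e-07). CLK3 went from 40.7 and 41.5 CPM to 81.5 and 78.4 CPM, a difference of 0.94 (SE 0.15, adjusted p = 8.2e-05), and CLK2 from 24.3 and 24.4 CPM to 33.02 and 31.2 CPM, a difference of 0.38 (adjusted p = 0.021). For all 4 CLKs both SM08502 libraries lay above both vehicle libraries. DYRK1A, a related kinase that also acts on splicing factors, went from 154 and 143 CPM to 188 and 184 CPM (0.32), DYRK4 rose by 0.54 and SRPK2, an SR protein kinase of the cytoplasm, by 0.48. CLK1, CLK3 and CLK4 were also called higher in Ishikawa (by 1.58, 0.81 and 1.59), SNGM (by 1.04, 0.75 and 1.01) and HEC265 (by 1.81, 1.88 and 1.66). Leaving out any 1 of the 4 libraries gave 4 calls; CLK2 (adjusted p from 0.0037 to 0.12 over the alternatives), DYRK1A (from 0.0029 to 0.2) and DYRK4 (from 0.0044 to 0.18) were not called then, nor with limma voom; DYRK4 also lost its call without a filter, with a pseudocount of 0.1, after re-centring or quantile normalization, and when only this line was fitted. With limma voom the list had 4 called higher and 2 lower.

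**Figure D2:**
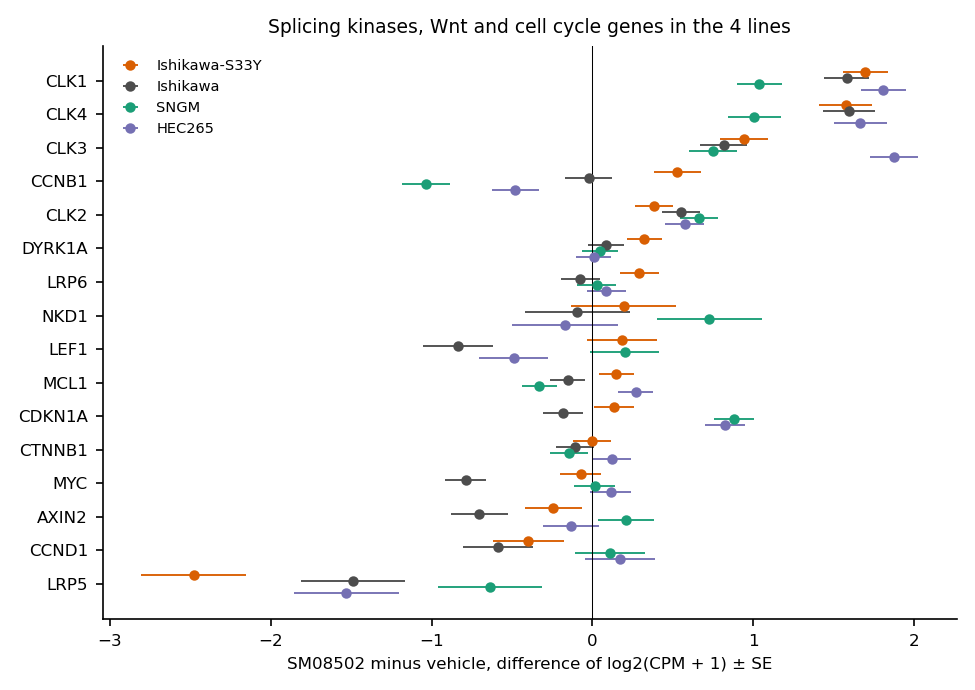
Difference between SM08502 and vehicle on the log2(CPM + 1) scale, with its standard error, for 16 splicing kinase, Wnt, cell cycle and survival genes in the 4 cell lines (n = 2 per group). CLK1, CLK3 and CLK4 lie right of 0 and LRP5 left of 0 in all 4 lines; CCNB1 lies right of 0 in Ishikawa-S33Y and left of 0 in SNGM and HEC265.

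The substrates of these kinases moved in both directions. Of 34 SR proteins and SR-related factors, 13 rose (38.2%) and 3 fell (8.82%), and 11 and 6 with limma voom. LUC7L3, an SR-like factor of the U1 particle, went from 49.4 and 49.9 CPM to 104 and 110.2 CPM, a difference of 1.09 (SE 0.18, adjusted p = 0.00014). PNN (pinin), an SR-related protein of exon junctions and nuclear speckles, went from 75.9 and 75.7 CPM to 147 and 149 CPM (0.96), and RSRP1 from 19.4 and 19.5 CPM to 35.6 and 38.7 CPM (0.90). THRAP3, an SR-related factor that also acts in DNA damage responses, went the other way, from 171 and 174 CPM to 58.4 and 51.8 CPM, a difference of -1.63 (SE 0.26, adjusted p = 0.0001). Classical SR proteins differed in direction: SRSF1 (-0.47) and SRSF2 (-0.57) fell, and SRSF6 (0.59) and SRSF10 (0.35) rose. The hnRNP proteins, which often act against SR proteins at exons, had 6 of 27 members higher (22.2%) and 2 lower (7.41%), counts that were 4 and 7 with limma voom, and 3 or 4 and 0 when 1 library was left out. HNRNPR rose from 136 and 132 CPM to 232 and 238 CPM (0.81) and HNRNPA2B1 from 381 and 379 CPM to 584 and 596 CPM (0.63), while the list median of 0.02 lay at -0.12 with limma voom.

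In the spliceosome itself, 12 of 46 core components rose (26.1%, against 18.5% of all genes) and 3 fell (6.52%), with a median of 0.22. With limma voom 10 rose and 6 fell, with a median of 0.08, and leaving out 1 library left 7 or 8 rises and 3 falls. The 3 that fell were PRPF8, DDX46 and U2AF2. PRPF8, the scaffold at the catalytic centre, stood at 622 and 653 CPM on vehicle and 223 and 190.4 CPM on SM08502, a difference of -1.62 (SE 0.25, adjusted p = 5.7e-05). DDX46, the RNA helicase that helps the U2 particle bind, went from 105 and 107 CPM to 42.8 and 41.4 CPM, a difference of -1.31 (SE 0.20, adjusted p = 5e-05). U2AF2, which recognises the polypyrimidine tract, went from 155 and 162 CPM to 70.3 and 70.7 CPM, a difference of -1.16 (SE 0.20, adjusted p = 0.00024). PRPF3, a protein of the U4/U6 particle, was the largest rise, from 28.6 and 28.8 CPM to 80.8 and 77.4 CPM, a difference of 1.43 (SE 0.12, adjusted p = 9e-08). In each of these 4 genes the vehicle and SM08502 libraries were separated. Nonsense-mediated decay, which removes transcripts with early stop codons, had 5 of 18 members higher (27.8%) and 0 lower: the UPF3 paralogues UPF3A (0.91) and UPF3B (1.000), the exon junction protein RBM8A (0.84), DHX34 (0.64) and the kinase SMG1 (0.56), whose pseudogene copies can share its reads. DHX34 was not called when any 1 of the 4 libraries was left out (adjusted p from 0.00039 to 0.091 over the alternatives).

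Some genes of the kinases that drive RNA polymerase II, their cyclins and their regulators also rose. Of 22 transcriptional CDKs, cyclins and their regulators, 9 were higher (40.9%) and 0 lower, with a median of 0.31; with limma voom the counts were 6 and 2. CDK9, the kinase of P-TEFb that releases paused polymerase, went from 28.1 and 27.0 CPM to 66.1 and 64.9 CPM, a difference of 1.22 (SE 0.13, adjusted p = 1.1e-06). Its partner cyclin CCNT2 went from 35.0 and 35.4 CPM to 63.5 and 65.7 CPM (0.86), and CCNH, the cyclin of the CDK-activating kinase, from 27.3 and 27.0 CPM to 43.1 and 48.6 CPM (0.74). HEXIM1, which holds P-TEFb inactive, went from 82.9 and 87.0 CPM to 138 and 137 CPM (0.68, adjusted p = 0.024), and was not called without a filter or when any 1 of the 4 libraries was left out (from 0.00025 to 0.11 over the alternatives). Leaving out any 1 library gave 4 calls.

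Among Wnt genes, the ligands and receptors called in the fit to all 32 libraries fell, and the targets were called in both directions. Of 34 Wnt ligands, receptors and secretion factors, 4 fell (11.8%, against 10.6% of all genes) and 0 rose (against 18.5%); the share of falls was close to the background. With limma voom 11 fell, after re-centring 8, and when 1 library was left out 3 or 4. LRP5, a co-receptor that recruits AXIN when Wnt binds (chr11:68298412-68449275), stood at 84.0 and 79.4 CPM on vehicle and 14.9 and 12.8 CPM on SM08502, a difference of -2.48 (SE 0.33, adjusted p = 1.2e-05). LRP6, its paralogue, stood at 169 and 168 CPM and 205 and 207 CPM, a difference of 0.29 that was not called (adjusted p = 0.079). LRP6 was called higher after quantile normalization and when only this line or only the 4 libraries were fitted. The ligand WNT7A went from 59.8 and 60.5 CPM to 26.2 and 25.2 CPM, a difference of -1.20 (SE 0.16, adjusted p = 1.2e-05). WLS, which carries Wnt proteins to the cell surface, went from 232 and 254 CPM to 146 and 134 CPM (-0.79, adjusted p = 0.0044), and PORCN, which attaches the lipid Wnt proteins need, from 11.9 and 11.9 CPM to 7.06 and 6.27 CPM (-0.75, adjusted p = 0.0092). WNT2B had 31.9 and 36.5 CPM on vehicle and 15.0 and 14.2 CPM on SM08502, but its difference of -1.17 was not called (adjusted p = 0.059). PORCN was not called without SM08502 replicate 2, vehicle replicate 1 or vehicle replicate 2 (adjusted p from 0.00028 to 0.082 over the alternatives), and WLS not with a pseudocount of 0.1 (from 3.6e-06 to 0.36).

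Of 27 Wnt/beta-catenin feedback targets, 4 rose and 4 fell (14.8% each), with a median of 0.03. With limma voom 2 rose and 8 fell, with a median of -0.11, and after re-centring or quantile normalization 2 rose and 5 fell. Leaving out 1 library gave 1 to 3 rises and 1 to 3 falls. AXIN2, a negative feedback target read as a gauge of the pathway, stood at 23.7 and 21.7 CPM on vehicle and 18.4 and 19.6 CPM on SM08502, a difference of -0.24 (SE 0.18) that was not called (adjusted p = 0.32). AXIN2 was called lower with limma voom and when only the 4 libraries were fitted. LEF1 (2.71 and 3.48 CPM, then 3.56 and 3.70 CPM) and NKD1 (24.7 and 23.3 CPM, then 28.6 and 26.6 CPM) were not called here or in any alternative. NOTUM, a secreted enzyme that inactivates Wnt proteins, went from 3.94 and 3.19 CPM to 1.11 and 0.988 CPM, a difference of -1.15 (SE 0.18, adjusted p = 9.5e-05). DKK1, a secreted antagonist of LRP5 and LRP6, moved the other way, from 7.54 and 6.71 CPM to 12.1 and 13.3 CPM, a difference of 0.75 (SE 0.16, adjusted p = 0.0016). MYC stood at 64.3 and 61.6 CPM and 58.3 and 61.2 CPM (-0.07, adjusted p = 0.71); the groups lay side by side without overlap. CCND1, cyclin D1, stood at 1275 and 1211 CPM and 943 and 942 CPM. Both SM08502 libraries were lower, but the difference of -0.40 was not called (adjusted p = 0.18). CCND1 was called lower with limma voom and when only this line or only the 4 libraries were fitted. Of 31 genes of beta-catenin, the destruction complex and nuclear partners, 0 rose and 3 fell: the co-repressors AES (-0.50) and TLE2 (-0.60), and the adhesion partner CDH1 (-0.76). The falls are 9.68%, near the background of 10.6%. The count of rises moved with the fit: 13 rose and 5 fell when only this line was fitted. With only the 4 libraries fitted, 17 rose and 5 fell. Those 2 fits called 6861 and 9261 genes in all, against 4946 in the main fit. TLE2 was not called without a filter or when any 1 of the 4 libraries was left out (adjusted p from 0.00026 to 0.15 over the alternatives), and CDH1 not without SM08502 replicate 2 or vehicle replicate 2 (from 0.00018 to 0.076). CTNNB1 stood at 214 and 207 CPM and 205 and 214 CPM, with overlapping groups (-0.01, SE 0.12).

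Many mitotic genes rose. Of 42 genes of mitosis and the spindle checkpoint, 21 were called higher (50%, against 18.5% of all genes) and 3 lower (7.14%), with a median of 0.52; leaving out 1 library left 14 or 15 higher. TTK, the checkpoint kinase also known as MPS1, stood at 59.0 and 62.0 CPM on vehicle and 126 and 133 CPM on SM08502, a difference of 1.08 (SE 0.16, adjusted p = 3.8e-05). NEK2, a centrosome kinase, went from 27.0 and 27.0 CPM to 54.4 and 56.9 CPM, a difference of 1.02 (SE 0.17, adjusted p = 0.00016). PTTG1 (securin) went from 80.2 and 81.9 CPM to 146 and 151 CPM (0.86), and CDC20, which activates the anaphase-promoting complex, from 104 and 107 CPM to 191 and 194 CPM (0.86). TOP2A, topoisomerase II alpha, was the most abundant of those that rose, at 490.3 and 495 CPM and 906 and 875 CPM (0.85). CCNB1, cyclin B1, went from 262 and 266 CPM to 381 and 382 CPM (0.53, adjusted p = 0.01), and was not called when any 1 of the 4 libraries was left out, after re-centring or with limma voom (adjusted p from 0.00024 to 0.06 over the alternatives). HMMR, a spindle and hyaluronan-binding protein, fell from 54.8 and 53.8 CPM to 27.5 and 26.6 CPM, a difference of -0.98 (SE 0.17, adjusted p = 0.00023), as did the chromosome motor KIF4A, from 56.8 and 60.5 CPM to 31.6 and 30.3 CPM (-0.90), and SPC25 (-0.42). In Ishikawa 2 were called higher and 3 lower, against 6.5% and 8.68% of all genes there. Both Ishikawa counts were smaller without its SM08502 replicate 2. In HEC265 0 were higher and 8 lower (9.27% and 5.39% of all genes), and in SNGM 0 and 17 (3.8% and 4.06%). The test of the difference from Ishikawa called 3 of the 42 genes, and the difference from SNGM or HEC265 was not tested.

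Promoters of these genes are known for 2 short elements, the cell cycle homology region, searched here as TTTGAA, and the CCAAT box, searched as CCAAT, each on both strands. RefSeq windows of 300 bases around a start (GRCh38.p14) were at hand for 35 of the 42 genes. TTTGAA was found in 25 of their 44 windows (56.8%), against 15.2% of all 35116 windows, and CCAAT in 33 of 44 (75%), against 34.6%. The members called higher had similar shares, 12 of 22 windows (54.5%) for TTTGAA and 16 of 22 (72.7%) for CCAAT. The windows of CDC20 (chr1:43358731-43359030, + strand) and TOP2A (chr17:40417847-40418146, - strand) are shown. These were the most changed of the called-higher members whose windows hold both, among the chromosomes considered. Not every chromosome was considered for this choice. Capitals mark both elements on either strand. A match is a description of the letters, not evidence of binding.
CDC20: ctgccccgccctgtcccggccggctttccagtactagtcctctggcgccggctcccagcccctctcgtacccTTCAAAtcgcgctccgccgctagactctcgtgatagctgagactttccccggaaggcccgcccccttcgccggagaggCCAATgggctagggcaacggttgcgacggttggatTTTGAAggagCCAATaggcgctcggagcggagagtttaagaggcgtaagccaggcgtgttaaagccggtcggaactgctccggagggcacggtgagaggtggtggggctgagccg
TOP2A: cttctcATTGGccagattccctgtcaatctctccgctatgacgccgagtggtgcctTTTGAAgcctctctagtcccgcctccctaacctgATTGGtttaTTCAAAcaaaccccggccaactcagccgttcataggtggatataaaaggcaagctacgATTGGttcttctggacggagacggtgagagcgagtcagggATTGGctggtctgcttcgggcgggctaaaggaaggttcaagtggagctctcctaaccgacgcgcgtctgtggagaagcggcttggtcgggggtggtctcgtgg

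Other cell cycle lists had calls in both directions, in numbers that moved with the processing. Of 44 DNA replication genes and E2F targets, 8 rose (18.2%) and 7 fell (15.9%), against 5 and 12 with limma voom, 8 and 11 after quantile normalization, and 4 to 6 and 4 or 5 when 1 library was left out. Among them, the helicase cofactor GINS1 went from 69.5 and 70.8 CPM to 122 and 128 CPM (0.83), and the origin factor ORC6 rose by 0.77, whereas the DNA ligase LIG1 went from 22.1 and 20.3 CPM to 11.5 and 9.78 CPM (-0.93), the polymerase gene POLE from 116 and 109 CPM to 64.0 and 56.4 CPM (-0.89) and POLA2 from 26.6 and 27.0 CPM to 15.3 and 14.5 CPM (-0.81). Of 32 genes of the G1 cyclin machinery, 6 rose (18.8%) and 5 fell (15.6%); with limma voom 2 rose and 10 fell, without a filter or after re-centring 3 rose and 5 fell, and when 1 library was left out 1 or 2 rose and 4 fell. MYCN, a MYC family transcription factor, went from 29.1 and 26.7 CPM to 11.4 and 11.5 CPM, a difference of -1.22 (SE 0.19, adjusted p = 8.9e-05), and CCNE1, cyclin E1, from 32.1 and 31.3 CPM to 19.3 and 17.5 CPM (-0.75). Of 51 replication-dependent histone genes, 10 fell (19.6%) and 3 rose (5.88%), with a median of -0.32; without SM08502 replicate 2 only 2 were called lower, without vehicle replicate 1 only 3 and without vehicle replicate 2 only 4. HIST1H3H was the largest rise, from 3.20 and 4.40 CPM to 10.5 and 12.4 CPM (1.38). Histone genes have near-identical copies, so reads could be split between them.

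Of 29 p53 targets, 10 rose (34.5%) and 0 fell, and 8 or 9 were called without any 1 library; with limma voom 8 rose and 3 fell. GADD45A, a growth arrest gene, stood at 7.05 and 7.97 CPM on vehicle and 14.3 and 16.3 CPM on SM08502, a difference of 0.94 (SE 0.16, adjusted p = 0.00013). TIGAR, a fructose bisphosphatase, went from 25.4 and 25.7 CPM to 43.8 and 43.7 CPM (0.75), the exonuclease gene AEN from 17.1 and 17.0 CPM to 27.2 and 31.6 CPM (0.75), and the death receptor FAS, which overlaps ACTA2, rose by 0.74. CDKN1A, which encodes the CDK inhibitor p21, had 17.1 and 14.6 CPM on vehicle and 18.5 and 16.4 CPM on SM08502; the groups overlapped and it was not called (0.13, adjusted p = 0.47). Of 39 genes of homologous recombination and the DNA damage kinases, 11 rose (28.2%) and 3 fell (7.69%): XRCC3 (0.59) and FANCA (0.54) were the largest rises, and TP53BP1 (-0.73) and FANCI (-0.60) the largest falls. TUBGCP4, which overlaps TP53BP1, went the other way, from 126 and 122 CPM to 178 and 187 CPM (0.55, adjusted p = 0.0039), and POLG, which overlaps FANCI, fell with it (-0.61, adjusted p = 0.019). The recombination list had 5 higher and 7 lower with limma voom and 6 and 4 after re-centring; leaving out 1 library gave 4 to 7 higher, with 4 without vehicle replicate 1. Among 28 BCL2 family members and apoptosis regulators, 7 rose (25%) and 3 fell (10.7%); the counts were 3 and 6 with limma voom, 4 and 4 after re-centring, and 1 to 4 and 2 or 3 when 1 library was left out, with 1 higher without vehicle replicate 2. The mitophagy receptors BNIP3 and BNIP3L fell, BNIP3 from 202 and 206 CPM to 99.5 and 58.7 CPM, a difference of -1.40 (SE 0.17, adjusted p = 4.7e-06), and BNIP3L from 255 and 261 CPM to 168 and 132 CPM, a difference of -0.79 (SE 0.16, adjusted p = 0.001). MCL1, an anti-apoptotic member, stood at 140.1 and 139 CPM and 154 and 155 CPM and was not called (0.15, adjusted p = 0.33). It was called higher when only this line or only the 4 libraries were fitted.

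The list with the lowest median of the 34 was the hypoxia response, the genes that hypoxia-inducible factor (HIF) switches on. Of 26 tested, 21 fell and 0 rose, that is, 80.8% against 10.6% of all genes called lower, with a median of -0.69. HILPDA, a lipid droplet protein, stood at 15.2 and 16.1 CPM on vehicle and 6.65 and 3.75 CPM on SM08502, a difference of -1.47 (SE 0.19, adjusted p = 8.9e-06). ADM, the vasodilator peptide adrenomedullin, went from 55.6 and 59.6 CPM to 32.3 and 13.6 CPM, a difference of -1.41 (SE 0.23, adjusted p = 9.7e-05). LOX, which crosslinks collagen, went from 605 and 651 CPM to 248 and 236 CPM, a difference of -1.37 (SE 0.22, adjusted p = 0.00012). SRFBP1, which overlaps LOX, rose from 19.2 and 20.4 CPM to 27.7 and 27.8 CPM (0.47, adjusted p = 0.003). PDK1, a kinase that inhibits pyruvate dehydrogenase, went from 54.5 and 54.7 CPM to 25.7 and 17.9 CPM, a difference of -1.31 (SE 0.14, adjusted p = 8.6e-07). In HILPDA, ADM, LOX and PDK1 both SM08502 libraries lay below both vehicle libraries, and SM08502 replicate 2 below replicate 1. The growth factor VEGFA went from 113 and 114 CPM to 69.9 and 49.9 CPM (-0.92), and the carbonic anhydrase CA9 from 2.17 and 2.31 CPM to 1.05 and 0.593 CPM (-0.84).

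Members that act in glycolysis were among those that fell. The glucose transporter SLC2A1 went from 733 and 695 CPM to 544 and 473 CPM (-0.49), the aldolase ALDOA from 1436 and 1436 CPM to 1097 and 994 CPM (-0.46) and ALDOC from 47.8 and 47.9 CPM to 28.4 and 18.9 CPM (-1.01). PGK1 went from 459 and 471 CPM to 246 and 211 CPM (-1.03), ENO1 from 1122 and 1168 CPM to 699 and 583 CPM (-0.84) and LDHA, which turns pyruvate into lactate, from 1306 and 1378 CPM to 771 and 642 CPM (-0.93). PFKFB4 (-1.16) and PFKFB3 (-0.80), which set the level of a glycolytic activator, fell as well. The prolyl hydroxylases EGLN1 and EGLN3, which mark HIF for degradation, went from 123 and 121 CPM to 95.7 and 85.1 CPM (-0.43) and from 33.02 and 32.4 CPM to 25.3 and 23.4 CPM (-0.42). The 5 members not called were ANKRD37 (-0.48), ANGPTL4 (-0.48), SLC2A3 (-0.25), MXI1 (-0.23) and the histone demethylase KDM3A (0.08).

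The 2 SM08502 libraries were not alike in this group: replicate 2 was below replicate 1 in 25 of the 26 genes, against 59.0% of all tested genes. Without SM08502 replicate 2, 13 members were called lower and the median was -0.54; without SM08502 replicate 1, 19 were called and the median was -0.87. Without vehicle replicate 1 or vehicle replicate 2, 17 were called. BNIP3 and BNIP3L, which HIF also induces, were ordered in the same way. In the separate libraries of the combination and of paclitaxel alone, 23 of the 26 fell and 0 rose, with a median of -0.91. Of all genes, 17.4% fell and 22.1% rose in that comparison. In Ishikawa 1 rose and 4 fell, against 6.5% and 8.68% of all genes there. The count of falls moved when 1 of the SM08502 libraries of Ishikawa was left out. In SNGM 1 rose and 8 fell (3.8% and 4.06% of all genes), and in HEC265 4 and 4 (9.27% and 5.39%).

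HIF binds a core element in promoters, searched here as ACGTG on both strands; the letters also lie inside the E-box CACGTG, which other factors bind. Windows were at hand for 22 of the 26 genes. ACGTG was found in 19 of their 32 windows (59.4%), against 21.4% of all 35116 windows. For the members called lower it was 16 of 25 windows (64%). The list was chosen as genes that HIF switches on, so an excess of the letters does not bear on the response to SM08502. A match is a description of the letters, not evidence of binding. The 4 windows shown are those of the most changed members that hold the letters, among the chromosomes considered. Not every chromosome was considered for this choice. Where a gene has several windows, that of most matches is shown. Capitals mark ACGTG on either strand, and in ALDOC the first match is an E-box. The 4 windows are those of LOX (chr5:122078210-122078509, - strand), PDK1 (chr2:172555840-172556139, + strand), PGK1 (chrX:78103998-78104297, + strand) and ALDOC (chr17:28576846-28577145, - strand).
LOX: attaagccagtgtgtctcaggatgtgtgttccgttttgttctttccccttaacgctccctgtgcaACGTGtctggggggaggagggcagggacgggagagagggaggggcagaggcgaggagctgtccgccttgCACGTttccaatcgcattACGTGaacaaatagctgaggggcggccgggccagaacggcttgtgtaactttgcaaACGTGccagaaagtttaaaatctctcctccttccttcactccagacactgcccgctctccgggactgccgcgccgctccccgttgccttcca
PDK1: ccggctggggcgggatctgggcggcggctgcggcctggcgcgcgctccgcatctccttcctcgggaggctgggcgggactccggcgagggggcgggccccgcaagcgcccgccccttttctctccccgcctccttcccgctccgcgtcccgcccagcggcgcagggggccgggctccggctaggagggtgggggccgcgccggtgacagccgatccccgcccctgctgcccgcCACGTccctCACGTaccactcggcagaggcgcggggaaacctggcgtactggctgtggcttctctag
PGK1: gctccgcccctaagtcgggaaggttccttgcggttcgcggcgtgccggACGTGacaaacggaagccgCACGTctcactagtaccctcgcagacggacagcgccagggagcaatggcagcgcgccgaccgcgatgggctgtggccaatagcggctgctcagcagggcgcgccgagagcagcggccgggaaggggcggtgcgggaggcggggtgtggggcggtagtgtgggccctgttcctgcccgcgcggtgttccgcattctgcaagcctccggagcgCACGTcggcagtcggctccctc
ALDOC: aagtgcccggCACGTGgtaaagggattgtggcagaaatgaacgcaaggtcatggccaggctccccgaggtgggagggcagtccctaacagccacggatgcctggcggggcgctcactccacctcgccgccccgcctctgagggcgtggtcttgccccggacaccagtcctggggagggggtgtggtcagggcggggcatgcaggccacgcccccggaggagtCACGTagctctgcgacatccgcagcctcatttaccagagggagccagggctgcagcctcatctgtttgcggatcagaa

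Of 49 nuclear genes of complex I and ATP synthase, 2 rose (4.08%) and 8 fell (16.3%), with a median of -0.18; with limma voom 0 rose and 12 fell; the count of falls was 4 without SM08502 replicate 1, without SM08502 replicate 2 or without vehicle replicate 2. ATP5G1, which encodes a c subunit of ATP synthase, went from 49.1 and 50.1 CPM to 16.9 and 14.7 CPM, a difference of -1.60 (SE 0.18, adjusted p = 3e-06), and its paralogue ATP5G2 from 82.1 and 76.8 CPM to 45.7 and 42.7 CPM (-0.83). Of the 13 mitochondrially encoded mRNAs, 0 were called with limma, whose unadjusted p was under 0.05 for 0 of them, and 0 with limma voom.

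Markers of endometrial epithelium fell. Of 21 tested, 12 fell (57.1%, against 10.6% of all genes) and 1 rose (4.76%), with a median of -0.51. The keratins KRT8 and KRT18, which pair in simple epithelia, stood at 1616 and 1545 CPM and 747 and 787 CPM on vehicle and at 719 and 595 CPM and 405 and 356 CPM on SM08502. The 2 genes overlap in RefSeq. KRT8 had a difference of -1.27 (SE 0.17, adjusted p = 1.4e-05) and KRT18 a difference of -1.01 (SE 0.11, adjusted p = 1.7e-06). MSX1, a homeobox factor of the uterine epithelium, went from 346 and 301 CPM to 144 and 130.0 CPM, a difference of -1.23 (SE 0.21, adjusted p = 0.00019). SOX17, a transcription factor of uterine glands, went from 221 and 197 CPM to 111 and 106 CPM (-0.93), the tight junction genes CLDN3 (-0.69) and CLDN4 (-0.78) fell, and ESR1, the estrogen receptor, went from 45.4 and 40.8 CPM to 31.5 and 28.6 CPM (-0.51, adjusted p = 0.021). HOXA10 was the member that rose, from 23.1 and 22.3 CPM to 30.5 and 29.2 CPM (0.38), and EPCAM, an epithelial adhesion molecule, stood at 232 and 225 CPM and 254 and 252 CPM without a call. The summed level of the 21 markers was 4469 and 4313 CPM on vehicle and 2547 and 2285 CPM on SM08502. Without SM08502 replicate 2, 5 were called lower, and without either vehicle replicate, 7. In Ishikawa 10 of the 21 fell and 0 rose, against 8.68% and 6.5% of all genes there. Fewer fell without Ishikawa SM08502 replicate 2.

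Markers of other cell types were called in part. Of 10 stromal and mesenchymal markers tested, 3 fell: the smooth muscle actin ACTA2 (5.86 and 6.08 CPM, then 1.92 and 1.53 CPM), TAGLN (174 and 162 CPM, then 73.0 and 80.4 CPM) and THY1 (-0.68); with a pseudocount of 0.1 the list had 1 fall. The summed level of the 14 listed was 2271 and 2260 CPM on vehicle and 1900 and 1759 CPM on SM08502. Of 8 immune markers tested, CD68 (0.71) and CD14 (1.10) rose, the latter from 0.148 and 0 CPM to 1.46 and 1.14 CPM; the summed level was 10.4 and 10.6 CPM, then 15.6 and 15.2 CPM. CD14 was not called when any 1 of the 4 libraries was left out or when only this line was fitted (adjusted p from 2.9e-05 to 0.15 over the alternatives), and CD68 not without SM08502 replicate 1 or vehicle replicate 1 (from 0.00089 to 0.062). Of 6 endothelial markers 0 were called by limma, with or without voom weights, and 1 had an unadjusted p under 0.05. Their part in the results was not tested.

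**Figure D3:**
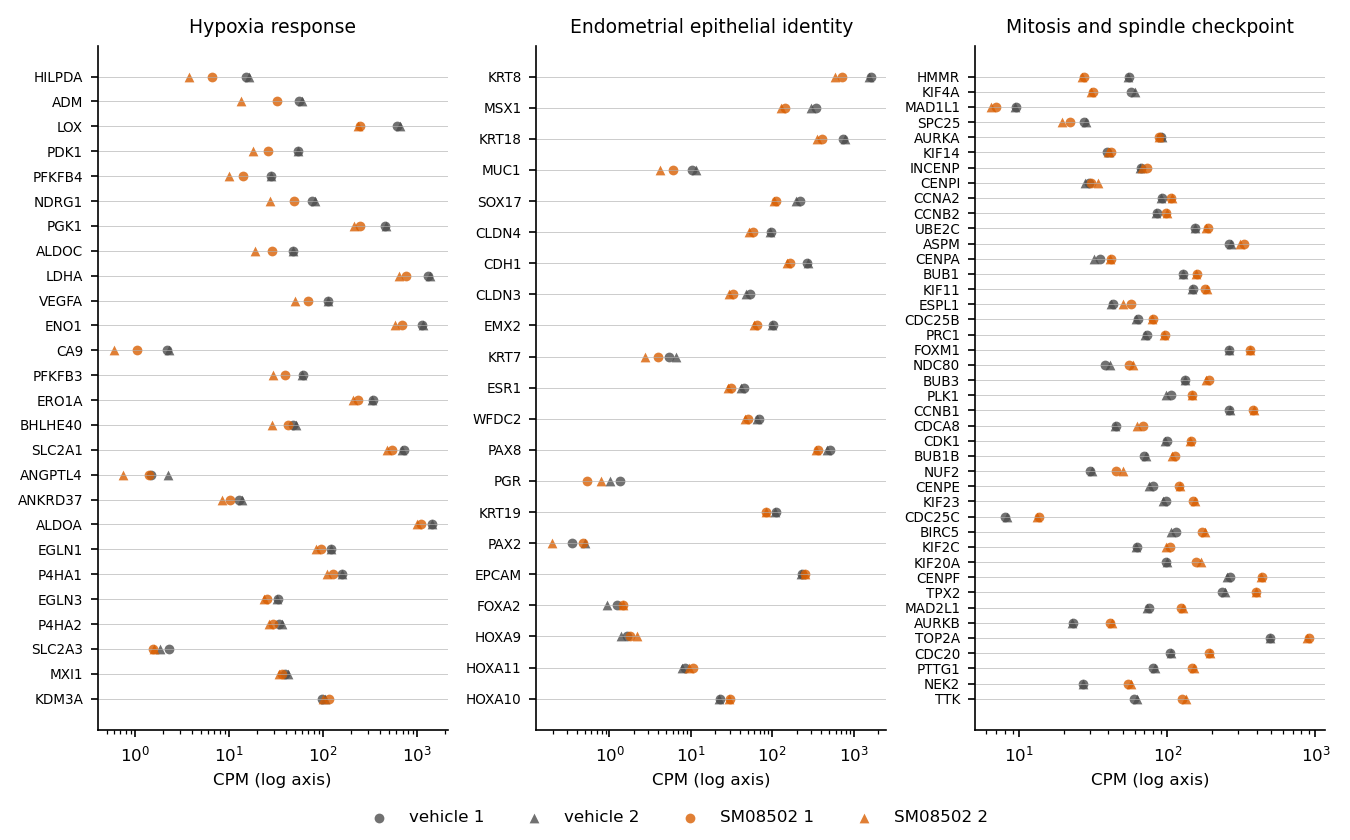
CPM (log axis) of every tested member of 3 gene lists in the 4 Ishikawa-S33Y libraries, ordered by difference, with grey for vehicle and orange for SM08502. Of the 26 hypoxia genes 25 have lower mean levels on SM08502, 16 of the 21 epithelial markers do, and 37 of the 42 mitotic genes have higher ones.

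Stress and signalling groups moved in part. Of 26 genes of the integrated stress response, 8 rose (30.8%) and 5 fell (19.2%), and 6 and 6 with limma voom. ATF4, its central transcription factor, stood at 146 and 134 CPM on vehicle and 257 and 258 CPM on SM08502, a difference of 0.88 (SE 0.11, adjusted p = 5.9e-06), and its target ASNS, asparagine synthetase, at 36.4 and 36.8 CPM and 68.4 and 67.1 CPM, a difference of 0.87 (SE 0.11, adjusted p = 6.7e-06). DDIT4, an inhibitor of mTORC1 that hypoxia also induces, fell from 73.8 and 75.3 CPM to 41.3 and 30.6 CPM, a difference of -1.05 (SE 0.15, adjusted p = 4.4e-05), with SM08502 replicate 2 the lower. The chaperone HSPA5, a marker of stress of the endoplasmic reticulum, went from 644 and 703 CPM to 464 and 455 CPM (-0.55). Of 24 heat shock chaperones, 5 rose (20.8%, against 18.5% of all genes) and 0 fell, all by less than 1, led by CHORDC1 (0.66) and HSPA4 (0.55); 2 were called with limma voom and 2 or 3 when 1 library was left out. Among 27 immediate early and AP-1 genes, 8 rose (29.6%) and 4 fell (14.8%), against 6 and 6 with limma voom and 4 or 5 and 0 to 3 when 1 library was left out. DUSP6, a phosphatase induced by ERK signalling, went from 79.6 and 76.0 CPM to 150.4 and 162 CPM (0.99) and FOSL1 from 16.3 and 16.1 CPM to 32.1 and 33.5 CPM (0.97), whereas EGR1 went from 324 and 289 CPM to 163 and 145 CPM (-0.99, adjusted p = 0.032) and was not called without a filter or when any 1 of the 4 libraries was left out (from 0.00028 to 0.16 over the alternatives).

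Of 28 NF-kappaB and inflammasome genes, 3 rose (10.7%) and 0 fell; with limma voom 3 rose and 2 fell. PYCARD, the inflammasome adaptor ASC, was nearly silent on vehicle at 0.394 and 0.210 CPM and reached 6.36 and 6.32 CPM on SM08502, a difference of 2.50 (SE 0.21, adjusted p = 7.1e-08). RELB and NFKBIB rose by 0.84 and 0.88. Of 33 interferon-stimulated genes, 6 rose (18.2%) and 3 fell (9.09%), both near the background, with IRF7 going from 4.83 and 4.32 CPM to 9.80 and 11.7 CPM (1.07), and 1 to 3 were called higher when 1 library was left out; with limma voom 4 rose and 6 fell. Cholesterol synthesis and SREBP target genes fell more often than they rose, 10 (33.3%) against 2 (6.67%) of 30. TM7SF2, a sterol reductase, went from 39.3 and 38.8 CPM to 17.8 and 15.6 CPM, a difference of -1.18 (SE 0.23, adjusted p = 0.00074), and the desaturase SCD from 987 and 997 CPM to 533 and 465 CPM (-0.99). Mevalonate pathway members on opposite sides were FDPS (-0.85) and MVK (0.70). Without SM08502 replicate 2, 6 of the list were called lower.

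Of 30 ESCRT components, which cut membranes in cell division and endosomal sorting, 13 rose (43.3%) and 3 fell (10%), and 11 and 5 with limma voom; leaving out 1 library gave 7 to 10 rises. VPS36 went from 49.6 and 48.05 CPM to 17.6 and 16.6 CPM, a difference of -1.46 (SE 0.12, adjusted p = 6.9e-08), and MVB12A from 34.2 and 34.04 CPM to 18.4 and 16.8 CPM (-0.92), whereas CHMP4C, of the abscission checkpoint, rose from 15.3 and 16.9 CPM to 27.9 and 28.1 CPM (0.77). Of 31 tubulins and microtubule regulators, 5 rose (16.1%) and 4 fell (12.9%), against 2 and 8 with limma voom and 1 or 2 and 3 when 1 library was left out. TUBB3, the beta-tubulin isotype known from taxane resistance, went from 55.5 and 52.4 CPM to 26.7 and 24.4 CPM, a difference of -1.05 (SE 0.11, adjusted p = 6.2e-07). Among 24 endometrial cancer drivers, 6 rose (25%) and 3 fell (12.5%), against 5 and 5 with limma voom and 3 or 4 and 2 or 3 when 1 library was left out: ERBB2, the HER2 receptor, went from 109 and 101 CPM to 51.2 and 43.6 CPM, a difference of -1.13 (SE 0.19, adjusted p = 0.00019), and TSC2, an inhibitor of mTORC1 signalling, from 59.0 and 57.5 CPM to 25.7 and 22.02 CPM, a difference of -1.26 (SE 0.22, adjusted p = 0.00024), while FBXW7 (0.56) and PIK3CA (0.42) rose. Of 60 genes with very long transcripts, 10 rose (16.7%) and 12 fell (20%), against 8 and 17 with limma voom and 5 to 7 and 6 to 9 when 1 library was left out; the ubiquitin ligase HUWE1 went from 437 and 399 CPM to 174 and 140.4 CPM (-1.41) and the centriole gene CENPJ from 18.8 and 18.8 CPM to 37.9 and 42.4 CPM (1.05). Of 79 cytosolic ribosomal protein genes, 6 rose (7.59%) and 0 fell; with limma voom 2 rose and their median of 0.08 lay at -0.06, and leaving out 1 library gave 3 rises.

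**Figure D4:**
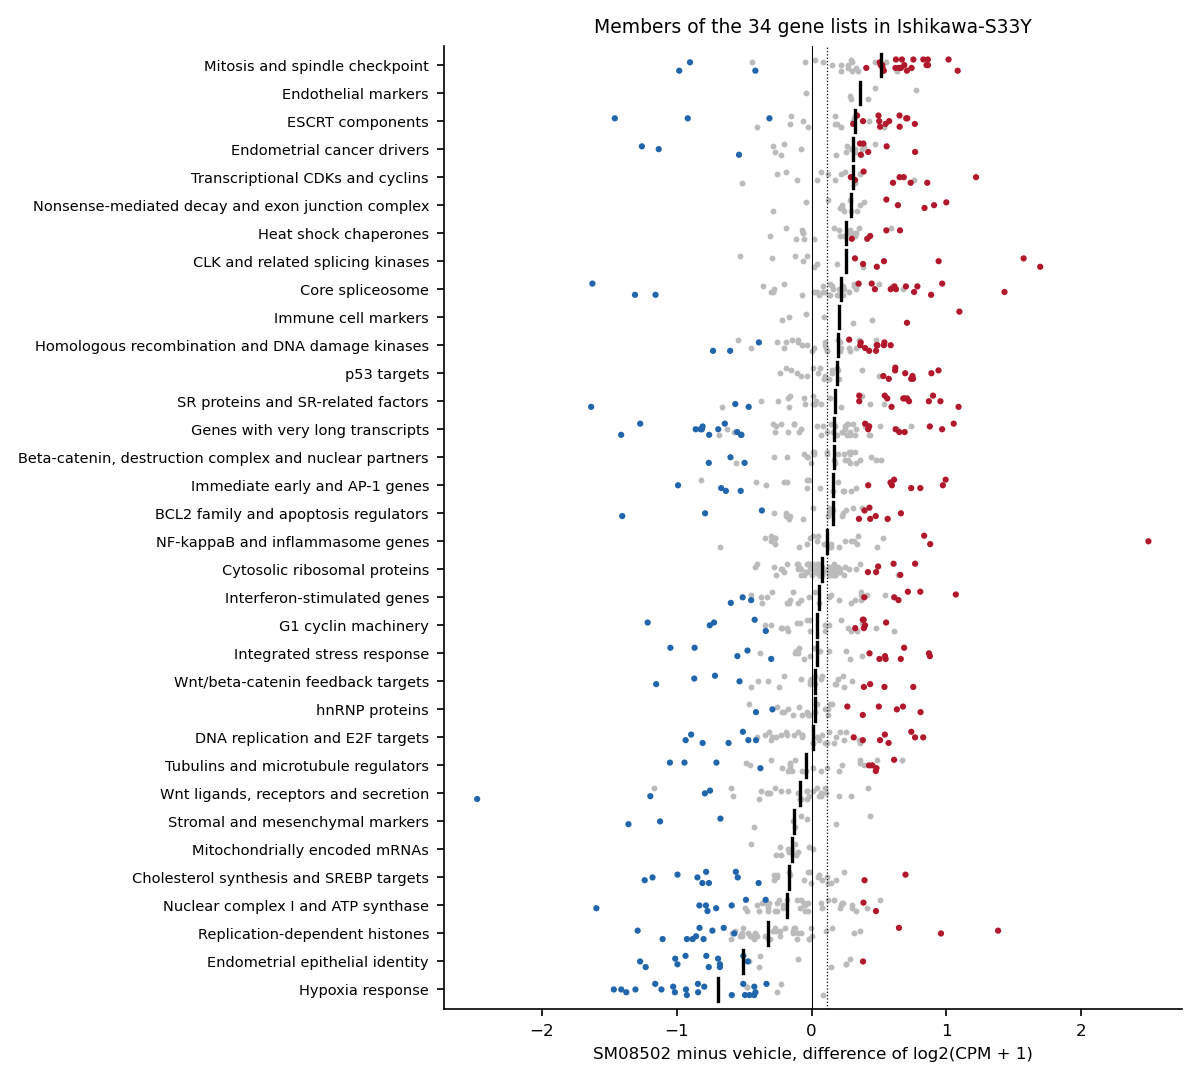
Difference between SM08502 and vehicle (log2(CPM + 1)) for every tested member of 34 gene lists in Ishikawa-S33Y, red if called higher, blue if called lower and grey if not called, with a black bar at each list's median. The dotted line is the median of all 17011 genes (0.11); the hypoxia response has the lowest list median (-0.69) and mitosis the highest (0.52).

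The response was measured again in this line, against a background of paclitaxel, which stabilises microtubules. The combination and the paclitaxel libraries are not among the 4 above. In them 6708 genes were called (39.4%), 3752 higher (22.1%) and 2956 lower (17.4%). Of the 3146 genes called higher on SM08502 alone, 2624 (83.4%) were called higher again and 0 lower; of the 1800 called lower, 1660 (92.2%) were called lower again and 0 higher. The 2-fold falls recurred in 329 of 335 genes (98.2%), and the 2-fold rises in 269 of 293 (91.8%). Across the 17011 genes the differences correlated with r = 0.88, which is given as a description, since genes are not replicates. LRP5 differed by -2.61 with paclitaxel, CLK1 by 1.50, CCDC150P1 by 4.26 and SLC1A3 by 1.62. BNIP3, at 206 and 206 CPM on paclitaxel and 60.9 and 40.1 CPM on the combination, differed by -2.04. By group, 24 of the 42 mitotic genes rose and 3 fell with paclitaxel, and 15 of the 21 epithelial markers fell and 3 rose. Combination replicate 2 was shallow, with 2991041 reads.

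A direct test of the SM08502 difference with paclitaxel minus that without called 0 genes (0%) by limma, with 811 genes at an unadjusted p under 0.05, and 0 with limma voom on recovered reads. Without combination replicate 1 it called 339 genes, with the shallow replicate then standing alone for its group and assumed to vary like the others. A p that misses the threshold does not show that the responses were alike.

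**Figure D5:**
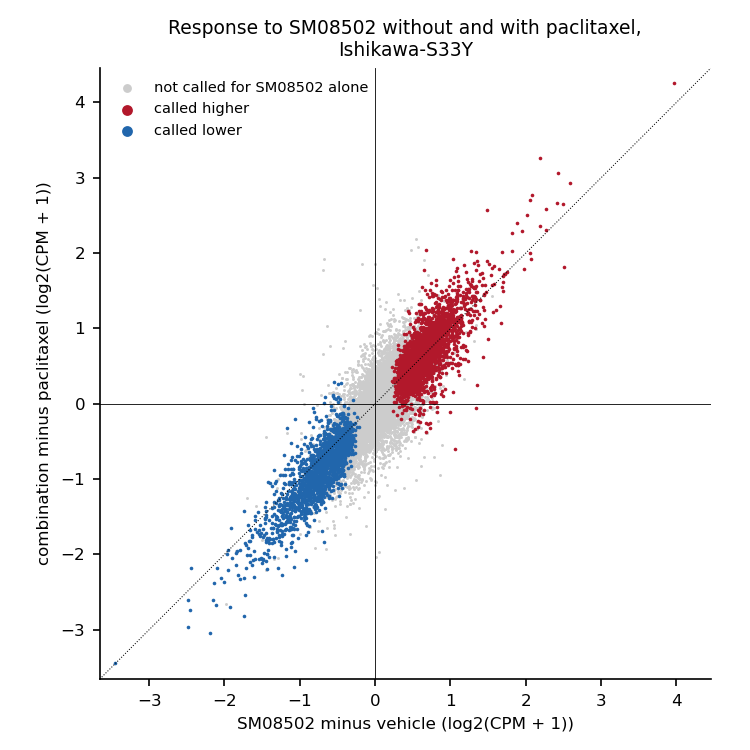
Difference of each of the 17011 genes on SM08502 minus vehicle (horizontal) and on the combination minus paclitaxel (vertical), both in log2(CPM + 1), red and blue for genes called higher and lower on SM08502 alone. Points scatter about the dotted line of equal differences, with CCDC150P1 at the upper right. The 2-fold falls on SM08502 alone had medians of -1.21 (horizontal) and -1.49 (vertical), and the 2-fold rises 1.17 and 1.24.

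Ishikawa, without the CTNNB1 mutation, showed part of this response. There 1105 genes (6.5%) rose and 1477 (8.68%) fell. Of the 335 genes that fell 2-fold in Ishikawa-S33Y, 206 (61.5%) were called lower in Ishikawa, 115 (34.3%) in HEC265 and 71 (21.2%) in SNGM; of the 293 that rose 2-fold, 142 (48.5%), 123 (42.0%) and 75 (25.6%) were called higher. All genes called in HEC265 came to 1577 higher (9.27%) and 917 lower (5.39%), and in SNGM to 647 higher (3.8%) and 690 lower (4.06%). Across genes, r with Ishikawa-S33Y was 0.61 for Ishikawa, 0.49 for HEC265 and 0.31 for SNGM. The doses differed, so these counts stand side by side. The 2 SM08502 libraries of Ishikawa differed from each other more than those of Ishikawa-S33Y, with a root mean square difference of 0.438 against 0.118 (log2). Mitochondrial transcripts took 10.8% and 3.91% of their reads, and PLCG2 alone 3.10% and 6.38%. Without Ishikawa SM08502 replicate 1, 1501 genes rose and 2331 fell there, and without replicate 2, 418 and 588; of the 335 falls, 208 and 124 were then called lower, and of the 293 rises, 115 and 104 called higher. The part of this spread in the counts was not tested otherwise.

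The difference between the responses of Ishikawa-S33Y and Ishikawa was tested itself, and 413 genes were called (2.43%), 311 with a higher and 102 with a lower difference in Ishikawa-S33Y. Of the 413, 12 had at most 3 reads in each library of 1 line, and 1, with no read in Ishikawa-S33Y, had no response there to compare. The hypoxia list held 6 of those with a lower difference and 0 with a higher one, among 26. BNIP3 had a difference of -1.40 in Ishikawa-S33Y and stood at 51.4 and 46.2 CPM and 47.0 and 52.7 CPM in Ishikawa (0.03), so that the responses differed by -1.43 (SE 0.24, adjusted p = 0.0038); this was called in every alternative except the fit of the 2 lines alone (adjusted p from 0.00027 to 0.077 over the alternatives). PDK1 and HILPDA differed by -0.92 and -1.09, with the call lost in 5 and 6 of 8 fits without 1 library. The mitosis list held 3 genes with a higher difference and 0 with a lower one, among 42. SLC1A3, which rose by 1.70 here, stood at 12.1 and 11.9 CPM and 11.9 and 12.2 CPM in Ishikawa, and the responses differed by 1.70 (adjusted p = 4.7e-05, and 2.2e-07 to 0.013 over the alternatives). ATF4 stood at 141 and 139.9 CPM and 144 and 139 CPM in Ishikawa, and the responses differed by 0.87 (adjusted p = 0.0046, and 0.0019 to 0.048 over the alternatives). MYC stood at 54.3 and 59.1 CPM on vehicle and 37.5 and 27.9 CPM on SM08502 in Ishikawa, a difference between responses of 0.72 (adjusted p = 0.039, and 0.005 to 0.19 over the alternatives). SYNC, which encodes the intermediate filament protein syncoilin, fell from 13.3 and 12.6 CPM to 3.38 and 3.46 CPM here and stood at 2.96 and 0.844 CPM and 2.60 and 2.37 CPM in Ishikawa (-2.02, adjusted p = 0.018, and 0.00012 to 0.22 over the alternatives). LRP5 (-0.99, adjusted p = 0.27) and CLK1 (0.12, adjusted p = 0.83) were not called. Of 25 named genes with a called difference and reads in this line, 4 were called in every alternative, SLC1A3 and ATF4 among them; 20 lost the call when some library was left out and 19 when only the 2 lines were fitted, and 0 changed sign. The count of 413 moved from 67 to 1307 genes when 1 of the 8 libraries was left out, with 67 without Ishikawa-S33Y SM08502 replicate 2 and 1307 without Ishikawa SM08502 replicate 1, and was 70 when only these 2 lines were fitted and 1171 without the 2 shallowest libraries of the series.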

How the data were processed

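RNA was sequenced from 4 endometrial cancer cell lines under 4 treatments, 2 libraries per group. Per the labels' protocols, ribosomal RNA was depleted, libraries were made with a KAPA mRNA HyperPrep kit and sequenced on an Illumina NovaSeq instrument. Per the submitters' processing notes, bcl2fastq, kallisto, STAR and GRCh38 were used. The program that counted reads, its annotation and whether strand was used are not given in the sources used here. The authors deposited log10(CPM + 1) for 35238 genes in 32 libraries. Back-transformed CPM sum to 1000000 in every library, and dividing by the value of 1 read gave whole numbers, within 0.02, for 100% of values under 1000 reads, from which depth was taken.

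Genes above 1 CPM in at least 2 libraries were kept (17011). With limma 3.58.1 in R 4.3.3, a mean per group was fitted, with an intensity trend and empirical Bayes moderation, to log2(CPM + 1) of all 32 libraries, with 16 residual degrees of freedom. P-values were two-sided, adjusted over all 17011 genes by the Benjamini-Hochberg method, and called under 0.05. The procedure was tested on simulated counts in which all groups varied alike around the Ishikawa-S33Y vehicle levels, apart from planted changes. The real groups did not vary alike, so this does not test p-values taken from their shared spread. Alternatives were other filters, pseudocounts, scalings, fits to fewer libraries, other moderation, limma voom on recovered reads, a replicate block and leaving out each library. Ishikawa's own counts without either of its SM08502 libraries were added after seeing the data.

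Genes were named by a rule: the 12 largest called rises and falls with a mean log2(CPM + 1) of at least 2 and no overlap between groups, the 4 most changed called members of each of 34 lists, 16 fixed genes, the 4 largest differences each way from Ishikawa, and the 2 largest each way between the responses with and without paclitaxel. Further list members, and genes overlapping a named one, were chosen after their values were seen. The comparison, the lists and the rule were chosen with earlier results of these data known. Gene positions and promoter windows are from RefSeq (GRCh38.p14), so overlaps may be other ones in the counting annotation; 15420 of the 17011 symbols matched it or a symbol table. Splicing tables named in the labels were not analysed here. A few genes that the rule names are not reported here.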

Additional observations from a re-analysis of the deposited data

Results flagged for a closer look

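The results below drew attention because the response to SM08502 differed between Ishikawa-S33Y and Ishikawa by a limma test of that difference itself, adjusted over all genes. It called 413 genes, of which 1 had no read in Ishikawa-S33Y and is left out below. Values are the difference in Ishikawa-S33Y minus that in Ishikawa (log2). Dose, RNA input and line cannot be told apart. Most of these calls were not stable: of the 25 genes below, SLC1A3, AC007325.2, ATF4 and HIST1H3H were called in every alternative, 20 lost the call in at least 1 of 8 fits without 1 library and 19 when only the 2 lines were fitted. No sign changed.

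Among the largest changes the difference was 2.41 for CCDC150P1, 1.81 for CCDC168, 1.70 for SLC1A3 and -1.80 for AC007325.2. ATP6V1C2, a subunit of the proton pump V-ATPase, gave 1.88. It went from 25.1 and 27.5 CPM to 7.81 and 10.9 CPM in Ishikawa and was not called in Ishikawa-S33Y (0.47). In Ishikawa-S33Y it was called higher without the 2 shallowest libraries and when only that line or only its 4 libraries were fitted. The histone gene HIST1H3H gave 1.66. SYNC gave -2.02 and ARMC3 -1.36, with calls in 2 and 1 of the 8 fits without 1 library and in neither case with a pseudocount of 0.1 (adjusted p from 0.00012 to 0.22 for SYNC and 0.0026 to 0.21 for ARMC3 over the alternatives). SRGAP3 gave -1.29, with a difference of 1.06 in Ishikawa and -0.23 in Ishikawa-S33Y.

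Among hypoxia and mitophagy genes, BNIP3 gave -1.43, BNIP3L -0.94, PDK1 -0.92, HILPDA -1.09 and DDIT4 -1.08. Among stress and p53 genes, ATF4 gave 0.87, ASNS 0.71, GADD45A 0.97 and AEN 0.72. ETV5, an ETS factor induced by growth factor signalling, gave 0.77, MYC 0.72 and PYCARD 1.28. The splicing factor HNRNPR gave 0.65, the replication gene GINS1 0.60, the keratin KRT18 -0.86 and the ATP synthase gene ATP5G1 -1.005.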

How the results depend on the processing

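SM08502 against vehicle counted 4118 to 6861 called genes in 12 of 13 alternatives and had 9261 when only the 4 libraries were fitted; leaving out 1 library gave 2722 to 3190. The combination against paclitaxel stayed within 1.5 times its count throughout. The difference from Ishikawa (413 genes) counted 235 with a pseudocount of 0.1, 726 with one of 5, 702 after quantile normalization, 1171 without the 2 shallowest libraries, 70 with only the lines compared, and 67 to 1307 when 1 library was left out. The difference with paclitaxel minus without (0 genes) counted 4 without a filter, 4 with a pseudocount of 5, 3 after median re-centring, 3 after quantile normalization, 4 without the shallowest libraries, and 0 to 339 when 1 library was left out (339 without combination replicate 1). The cause was not tested. Of 150 named genes called, 109 kept their call in every alternative and 0 changed sign; 28 lost it in an alternative other than leaving out a library and 35 when a library was left out. CTNNB1, not called, lay between -0.038 and 0.026 when 1 library was left out (0.026 without SM08502 replicate 1 and 0.016 without vehicle replicate 1, where its sign turned).

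Replicate numbers did not pair the samples: deviations of same-numbered libraries correlated between -0.06 and 0.11 across 9205 genes among the Ishikawa-S33Y groups. With a replicate block 4950 genes were called for SM08502 against vehicle, 6775 for the combination against paclitaxel, 311 for the difference from Ishikawa and 0 for the difference with paclitaxel. Depth limits genes under about 0.175 CPM, the level of 3 reads in the shallowest of the 4 libraries.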

Other observations

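By gene type, pseudogenes made up 11.2% of the genes found in RefSeq that rose at least 2-fold in Ishikawa-S33Y, 0.606% of those that fell as far and 5.14% of all genes tested. Another RefSeq gene overlapped 61.4% of these rises, 60.3% of the falls and 59.7% of all genes tested.

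By gene span, the tested protein-coding genes with RefSeq coordinates were divided into 5 classes of nearly equal size. In the class with the longest span (98.2 kb and more) 15.3% of genes were called higher and 14.9% lower, with a median difference of 0.05, and in that with the shortest (up to 9.725 kb) 15.9% and 11.6%, with a median of 0.06. In the 3 classes between them 20.5% to 21.6% were called higher and 9.75% to 11.3% lower. These shares were not tested.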
